A study of Bos grunniens with 18 samples.

Results

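The 10 genes described here encode proteins that join neighbouring cells: the connexins GJA1, GJA4, GJC1 and GJB2, the cadherins CDH1 and CDH2, the catenins CTNNB1, CTNNA1 and CTNNA2, and the nectin NECTIN2. They were picked by symbol from a table of 22183 genes, and all 10 passed the filter on low counts. Testis was removed by castration from male yaks (Bos grunniens, a high-altitude bovine) at 6 months, 18 months and 4 years of age, with 3 animals per age and 1 library of ribosomal RNA-depleted total RNA per animal. The animals came from a single cooperative, and the labels name no treatment that differed between the ages. Ages are those of the sample titles. A separate label gives the groups stage names in another order, calling the 4-year animals infancy, the 6-month animals adolescence and the 18-month animals adulthood, and it was not used.

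Connexins assemble into gap junctions, the channels through which adjoining cells exchange ions and small molecules. Cadherins hold cells together by binding across the space between them, catenins tie the inner ends of cadherins to actin, and nectins form a further adhesion system of immunoglobulin-like proteins at the same junctions. In the testis these proteins join Sertoli cells to each other at the blood-testis barrier, and Sertoli cells to the germ cells they carry.

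The 9 libraries held 22.95 to 33.12 M estimated counts. Levels are counts per 1 M counts of tested genes after TMM scaling (CPM), given as mean ± SD with n = 3 per age, and changes are log2 fold changes ± SE from 1 edgeR fit of all 9 libraries, called at a Benjamini-Hochberg adjusted p under 0.05. Summed CPM of marker genes followed the tissue label and differed widely with age. The 13 Sertoli cell markers found, of 14 listed, summed to between 8618 and 10570 at 6 months, 2082 and 5405 at 18 months, and 1834 and 1965 at 4 years. Of these 13, 7 fell and 3 rose at 18 months and 8 fell and 2 rose at 4 years, and GATA1 was at 0 in every 6-month library. The 10 spermatid markers summed to between 5.58 and 7.77, 279 and 3264, and 3376 and 4428. At 18 months the animals differed most: replicate 1 held the highest spermatid sum (3264) and the lowest Sertoli sum (2082), and replicate 2 the lowest spermatid sum (279) and the highest Sertoli sum (5405). In bulk tissue, fewer cells of a type and less RNA per cell cannot be told apart.

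Most of these junction genes were highest at 6 months. At 18 months against 6 months, 5 of the 10 fell (GJA1, CDH2, CTNNB1, CTNNA1 and NECTIN2) and 1 rose (CTNNA2). Over all 16742 genes tested, 59.9% were called, 27.1% lower and 32.7% higher, so the number of calls among the 10 was near that of any gene. Their median log2 fold change was -0.89, beside 0.02 over all genes tested. At 4 years against 6 months the same 6 genes were called in the same directions and GJA4 fell as well, which made 6 lower and 1 higher, beside 37.2% and 36.7% of all genes and 73.9% in all. The median was then -1.15, beside -0.06. Both comparisons share the 6-month libraries. In CPM, every called gene also had no overlap between the 3 libraries of each age compared. At 18 months 5 were lower and 1 higher throughout, beside 31.8% and 33.3% of all genes. At 4 years 6 were lower and 1 higher, beside 42.0% and 41.0%.

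At 4 years against 18 months none of the 10 passed the test in edgeR or in DESeq2, and none had an unadjusted p under 0.05. Of all genes tested, 0.00597% (1 gene) were called in edgeR, and 21.3% had an unadjusted edgeR p under 0.05. DESeq2 called 5.98% of the genes to which it gave an adjusted p. CTNNB1 was the only one of the 10 whose ages did not overlap there, being lower in all 3 libraries at 4 years, beside 25.4% of all genes that did not overlap and 13.6% that were lower. Without 18-month replicate 1, which sat closest to the 4-year animals for CTNNA2, NECTIN2 and CTNNA1, 3 were called: CTNNA1 (-0.50, edgeR adjusted p = 0.0385), CTNNA2 (0.86, edgeR adjusted p = 0.0271) and NECTIN2 (-0.63, edgeR adjusted p = 0.0464). In that fit 33.0% of all genes were called, so 3 of the 10 is near the share of any gene.

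**Figure D1:**
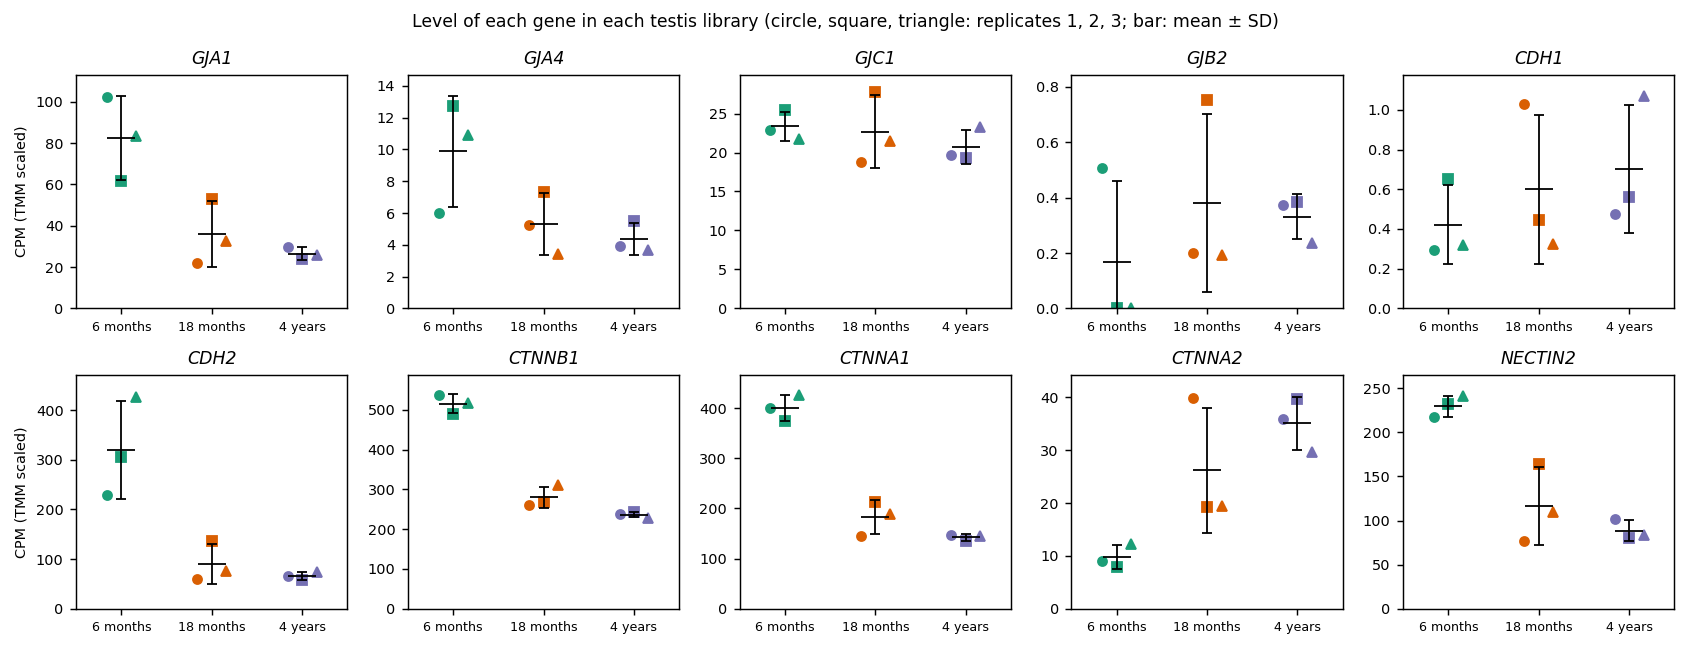
CPM of each of the 10 genes (vertical axes, from 0, each to its own scale) in the 9 libraries, by age; circles, squares and triangles are replicates 1, 2 and 3, and bars are the mean ± SD. CTNNB1, CTNNA1, CDH2, NECTIN2 and GJA1 lie higher at 6 months than in any library of the other ages, CTNNA2 lies lower, and GJC1, GJB2 and CDH1 overlap across ages.

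GJA1 (ENSBTAG00000001835), the main connexin of Sertoli cells and also found in Leydig cells, was the most abundant connexin. It stood at 102, 61.8 and 83.4 CPM in replicates 1 to 3 at 6 months, at 21.8, 53.1 and 32.7 CPM at 18 months, and at 30.0, 23.7 and 26.1 CPM at 4 years. No 6-month library overlapped with the other ages, and 18-month replicate 2 came closest. Its log2 fold change was -1.20 ± 0.32 at 18 months (edgeR adjusted p = 0.0111) and -1.63 ± 0.33 at 4 years (edgeR adjusted p = 0.00177) against 6 months. With library size alone as the scaling, the call at 18 months was lost (-0.77, edgeR adjusted p = 0.0841).

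GJA4 (ENSBTAG00000013881), a connexin known from endothelial cells of arteries, stood at 6.00, 12.7 and 10.9 CPM at 6 months. It stood at 5.24, 7.32 and 3.4 CPM at 18 months, where the highest library passed the lowest of 6 months. At 4 years it stood at 3.91, 5.51 and 3.68 CPM, where no library did. In deposited FPKM 4-year replicate 2 (3.33) passed 6-month replicate 1 (2.91). The log2 fold change was -0.89 ± 0.38 at 18 months (edgeR adjusted p = 0.0711) and -1.18 ± 0.39 at 4 years (edgeR adjusted p = 0.0212). This call was one of the least stable of the set: at 4 years it was lost with library size alone (-0.89, edgeR adjusted p = 0.0707) and without 6-month replicate 2 or 3 or 4-year replicate 1 or 3 (edgeR adjusted p between 0.0594 and 0.0792). At 18 months it was gained without 6-month replicate 1 (edgeR adjusted p = 0.0347) or 18-month replicate 2 (edgeR adjusted p = 0.031). The 10 endothelial markers, which share no gene with the set, summed to 375.4 to 386.4 CPM at 6 months, 154.4 to 231.4 at 18 months and 178.1 to 185.8 at 4 years, with 8 that fell and 1 that rose (VWF) in both comparisons and none at 0. Their part in the GJA4 values was not tested.

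GJC1 (ENSBTAG00000004036), a connexin of smooth muscle and of the conduction system of the heart, had similar levels at all ages. Its mean was 23.4 ± 1.89 CPM at 6 months, 22.7 ± 4.66 at 18 months and 20.8 ± 2.19 at 4 years, and the libraries of all ages overlapped. Its log2 fold changes were -0.04 ± 0.20 at 18 months (edgeR adjusted p = 0.856) and -0.17 ± 0.20 at 4 years (edgeR adjusted p = 0.445), and their sign turned with other scalings (0.36 and 0.12 with library size alone), so it has no direction here.

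GJB2 (ENSBTAG00000017425), a connexin of epithelia and of the inner ear, was barely detected. Its counts were 12, 0 and 0 at 6 months, 6, 22 and 6 at 18 months, and 11, 13 and 6 at 4 years. The ages overlapped only through 6-month replicate 1, and the log2 fold changes of 1.13 ± 1.21 and 0.94 ± 1.22 did not pass (edgeR adjusted p = 0.439 and 0.498). Without that replicate the 6-month group was at 0 and both comparisons passed (edgeR adjusted p = 0.0163 and 0.0134), with levels at least 5.64-fold higher at 18 months and at least 5.07-fold higher at 4 years than 3 counts over the group. A difference in GJB2 was thus not resolved with all libraries, and 1 library decided it.

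The cadherins differed most in level. CDH2 (ENSBTAG00000021190), or N-cadherin, the classical cadherin of Sertoli and germ cell junctions, stood at 229, 306 and 426 CPM at 6 months. It stood at 59.2, 136 and 76.4 CPM at 18 months and at 65.9, 57.7 and 73.3 CPM at 4 years, so every later library lay under every 6-month one. CDH2 showed the largest fold among the genes of the set that fell: -1.82 ± 0.34 at 18 months (edgeR adjusted p = 0.00193) and -2.29 ± 0.35 at 4 years (edgeR adjusted p = 0.000421), or 4.88-fold lower. Both calls held under every alternative run, with log2 fold changes from -2.12 to -1.38 at 18 months and from -2.48 to -1.98 at 4 years.

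CDH1 (ENSBTAG00000015991), or E-cadherin, the cadherin of epithelia that is also known from early spermatogonia, was close to the limit of detection. Its counts were 7, 15 and 7 at 6 months, 31, 13 and 10 at 18 months, and 14, 19 and 27 at 4 years. The libraries overlapped, and the log2 fold changes of 0.50 ± 0.63 and 0.72 ± 0.63 did not pass (edgeR adjusted p = 0.512 and 0.319). Epithelial markers of the rete testis and ducts, 9 genes, summed to 31.2 to 56.7 CPM at 6 months, 104.9 to 131.7 at 18 months and 106.9 to 116.7 at 4 years, and spermatogonial markers, 10 genes, to 496 to 636, 240.5 to 447 and 232 to 239.8 CPM. The spermatogonial sum was lower at the later ages although 5 of its 10 genes rose and 3 fell at 18 months, and 4 rose and 3 fell at 4 years. Of the epithelial markers CDH16 and CRISP1 were at 0 in every 6-month library, 6 were tested and 1 rose, EPCAM, in both comparisons. The part of either list in the CDH1 values was not tested.

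CTNNB1 (ENSBTAG00000016420), or beta-catenin, binds the tail of cadherins and also carries the Wnt signal to the nucleus. It was the most abundant gene of the set, at 538, 491 and 518 CPM at 6 months, 261, 267 and 311 CPM at 18 months and 238, 243 and 229 CPM at 4 years. The replicates of an age lay close together and the 3 ages did not overlap at all. CTNNB1 fell by 0.88 ± 0.16 on the log2 scale at 18 months (edgeR adjusted p = 0.00146) and by 1.12 ± 0.16 at 4 years (edgeR adjusted p = 0.00028), or 2.18-fold. The call at 18 months held under every alternative run, but the log2 fold change ran from -0.96 to -0.48. The log2 ratio of its deposited FPKM at 18 months against 6 months was -0.51.

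The alpha-catenins, which link beta-catenin to actin, moved in opposite directions. CTNNA1 (ENSBTAG00000014182), the widely expressed alpha-E-catenin, stood at 399, 374 and 425 CPM at 6 months, 146, 214 and 190 CPM at 18 months and 147, 134 and 145 CPM at 4 years. It fell by 1.13 ± 0.18 on the log2 scale at 18 months (edgeR adjusted p = 0.000919) and by 1.49 ± 0.18 at 4 years (edgeR adjusted p = 0.000159), or 2.81-fold. CTNNA2 (ENSBTAG00000031669), the alpha-N-catenin best known from neurons, stood at 9.04, 7.93 and 12.3 CPM at 6 months, 39.9, 19.3 and 19.4 CPM at 18 months and 35.9, 39.6 and 29.6 CPM at 4 years. It rose by 1.42 ± 0.32 at 18 months (edgeR adjusted p = 0.00508) and 1.84 ± 0.33 at 4 years (edgeR adjusted p = 0.000946), or 3.59-fold. Every later library lay under the 6-month ones for CTNNA1 and over them for CTNNA2. Among the 18-month animals, replicate 1, with the highest spermatocyte and spermatid marker sums, had the most CTNNA2 and the least CTNNA1. Replicates 2 and 3, with spermatid sums of 279 and 1473, had nearly the same CTNNA2 (19.3 and 19.4 CPM). Their CTNNA1 was 214 and 190 CPM. The part of the cell makeup in these values was not tested.

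NECTIN2 (ENSBTAG00000015318), the nectin that Sertoli cells present to spermatids, stood at 217, 232 and 241 CPM at 6 months. It stood at 76.7, 164 and 110.0 CPM at 18 months and at 102, 80.2 and 83.6 CPM at 4 years, again with no overlap with 6 months. The log2 fold change was -0.97 ± 0.26 at 18 months (edgeR adjusted p = 0.0114) and -1.37 ± 0.27 at 4 years (edgeR adjusted p = 0.00148), or 2.59-fold lower. With library size alone the call at 18 months was lost (-0.55, edgeR adjusted p = 0.131). In GJA1, CDH2, CTNNA1 and NECTIN2, 18-month replicate 2 was the highest and replicate 1 the lowest of that age, as in 7 of the 10 marker sums: Sertoli, Leydig, peritubular myoid, fibroblast, duct epithelium, spermatogonia and macrophage. The spermatocyte and spermatid sums had the reverse order, and in the endothelial sum replicate 3 was the highest. The part of the cell makeup in these values was not tested.

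**Figure D2:**
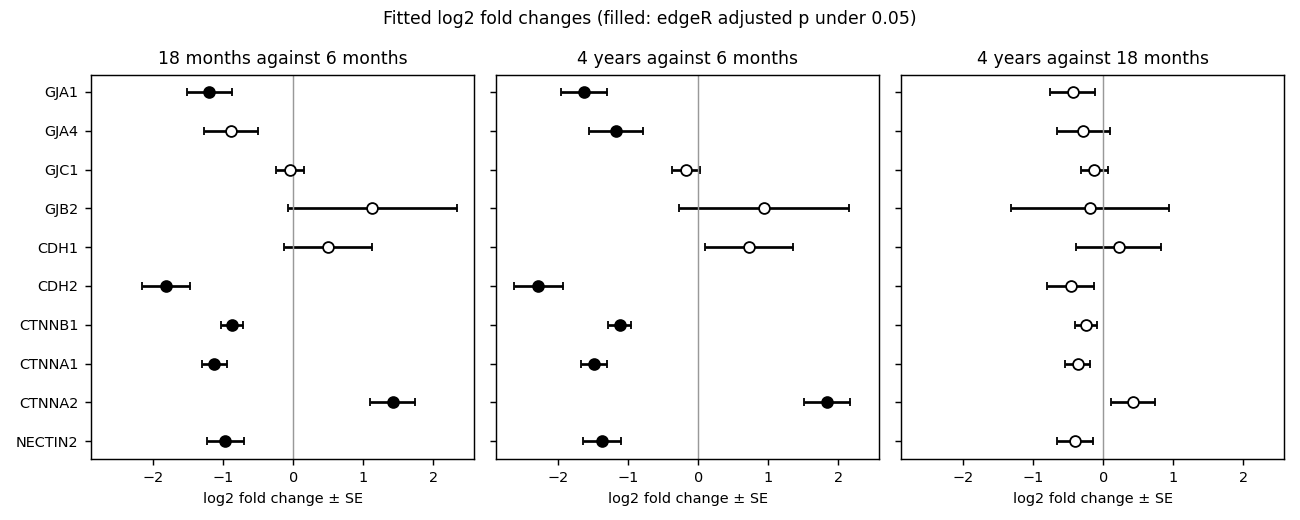
Log2 fold changes (horizontal axes) of the 10 genes in each comparison of 2 ages, from 1 edgeR fit of 9 libraries; bars are ± 1 SE and filled points have an adjusted p under 0.05. Against 6 months, GJA1, CDH2, CTNNB1, CTNNA1 and NECTIN2 lie left of 0 and CTNNA2 right of 0, and between 4 years and 18 months no point is filled.

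Levels of different genes were compared per transcript length, in FPKM as the authors deposited them. At 6 months the order was CTNNB1 (126.8 ± 4.98 FPKM), NECTIN2 (107.4 ± 7.71), CTNNA1 (83.8 ± 2.47) and CDH2 (69.2 ± 20.5), followed by GJA1 (20.6 ± 4.91), GJC1 (5.49 ± 0.99), GJA4 (4.77 ± 1.73) and CTNNA2 (3.93 ± 0.67). CDH1 (0.074 ± 0.036) and GJB2 (0.06 ± 0.10) stood last. CTNNA1 and CDH2 overlapped, as did GJC1, GJA4 and CTNNA2 in turn, and CDH1 and GJB2. At 4 years CTNNB1 (72.1 ± 1.79) still led NECTIN2 (43.1 ± 4.03) and CTNNA1 (38.5 ± 2.73), which overlapped. CTNNA2 (27.5 ± 3.67) had moved past CDH2 (18.8 ± 2.68), GJA1 (8.50 ± 0.96), GJC1 (5.55 ± 0.83) and GJA4 (2.68 ± 0.56), none of which overlapped with its neighbour. In CPM, which is not divided by length, CTNNA2 (35.1 ± 5.06) was still under CDH2 (65.6 ± 7.79) at 4 years. The length implied for CTNNA2 differed between the ages, as given below, so its place past CDH2 holds in FPKM only. At 18 months every pair of neighbours from CTNNB1 down to GJC1 overlapped. Each gene's rank, by mean FPKM over all ages, ran from percentile 23.5 (GJB2) to percentile 96.2 (CTNNB1) of the table.

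The authors' deposited table for 4 years against 6 months, whose rows have an FDR under 0.05 and a log2 FPKM ratio of at least 1.0 in size, lists 5 of the 10 among 10565 genes. Their log2 FPKM ratios in the authors' deposited table are -1.12 for CTNNA1, -1.88 for CDH2, 2.81 for CTNNA2, -1.32 for NECTIN2 and -1.28 for GJA1. The authors' deposited table for 6 months against 18 months lists CDH2 (-1.33 at 18 months) and CTNNA2 (2.39) among 7668 genes. The one for 4 years against 18 months lists none of the 10 among 247. With 22183 genes in the gene table, neither 5 of the 10 nor 2 of the 10 stands clearly above the share of any gene.

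Deposited count and FPKM moved apart for some of the genes. The length implied by their quotient, relative to that of CTNNA1 in the same library, is given as a description, chosen after the values were seen and with no test. For CTNNA2 it was 0.519 ± 0.027 at 6 months, 0.38 ± 0.082 at 18 months and 0.347 ± 0.048 at 4 years, lower by the last age in every library (a change of -33.2% in the mean). The log2 FPKM ratio of CTNNA2 at 4 years against 6 months was 2.81, beside 1.84 in the count fit. That gap is not one of length alone, as the 2 measures are also scaled differently. The count fit uses TMM factors, from 0.809 to 0.882 at 6 months and from 1.009 to 1.101 at 4 years. FPKM carries no such factor. For CTNNA1, the reference for length, the FPKM ratio was -1.12 beside -1.49 in the count fit, and for GJA1 -1.28 beside -1.63. For NECTIN2 the relative length was 0.45 ± 0.016, 0.544 ± 0.015 and 0.556 ± 0.014, a change of 23.5% by 4 years, and for GJA1 it was 0.839 ± 0.0016 and 0.847 ± 0.0012 at 6 months and 4 years, a change of 1.02%. The files used here hold no transcript models for these genes.

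Ratios of paired genes within a library need no scaling between libraries. They were compared over the 3 ages by exact permutation tests over all 280 groupings of the 9 libraries, whose smallest possible p is 0.00357, with adjustment over the 3 ratios. Each p is for any difference among the 3 ages together, not for the fold printed beside it. The ratios use the same counts as the fits above and were chosen with earlier results known. They are therefore no independent support for the calls of single genes. CTNNA2 relative to CTNNA1 was -5.46, -5.55 and -5.10 on the log2 scale at 6 months, -1.87, -3.47 and -3.29 at 18 months and -2.03, -1.76 and -2.29 at 4 years. No 6-month library came near the others, and the ratio was 10.2-fold higher at 4 years than at 6 months (exact permutation p = 0.0107, adjusted 0.0214). CDH1 relative to CDH2 was -9.54 ± 0.72 at 6 months, -7.28 ± 1.28 at 18 months and -6.60 ± 0.50 at 4 years, 7.67-fold higher at 4 years (exact permutation p = 0.0214, adjusted 0.0214). It rests on few CDH1 counts, and without 6-month replicate 1 or 3 or 4-year replicate 2 or 3 the adjusted exact permutation p was between 0.0536 and 0.0893. GJA1 relative to GJC1 was 1.79 ± 0.46, 0.59 ± 0.36 and 0.36 ± 0.23, 2.71-fold lower at 4 years (exact permutation p = 0.0143, adjusted 0.0214), and without 4-year replicate 3 the adjusted exact permutation p was 0.0536.

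**Figure D3:**
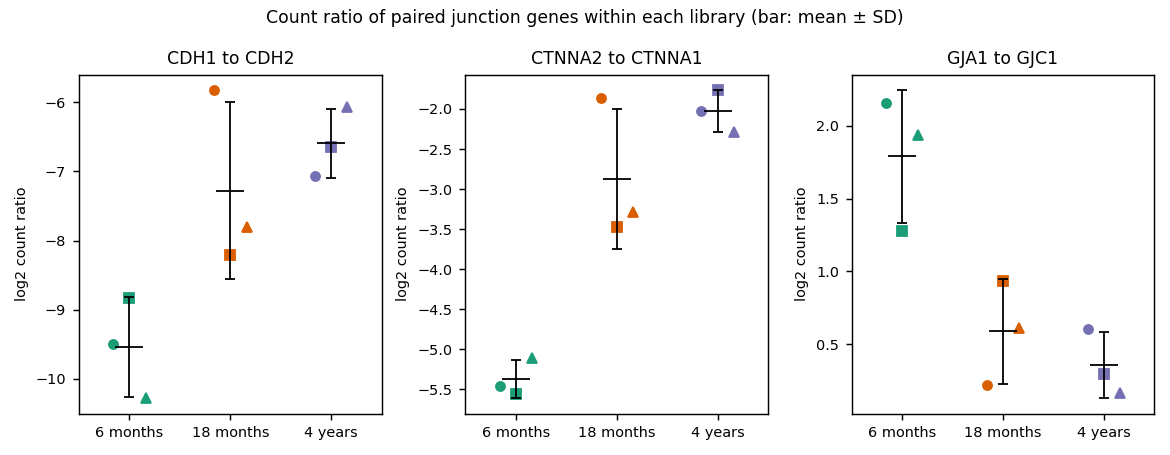
Log2 ratio of 2 genes' counts within each library (vertical axes), by age; circles, squares and triangles are replicates 1, 2 and 3 and bars the mean ± SD. The 6-month libraries lie under all others for CDH1 to CDH2 and for CTNNA2 to CTNNA1, and over all others for GJA1 to GJC1.

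The same RNA gave a second readout, circular RNAs (circRNAs), which are counted by reads that join the end of one exon to the start of the same or an earlier exon (back-splice reads). The table held 73679 circRNAs with 119.8 to 227.2 k reads per library, of which 63 came from 6 of the 10 genes: 24 from CTNNA1 (975 reads), 16 from CDH2 (537), 14 from CTNNA2 (96), 5 from CTNNB1 (62), 3 from GJC1 (74) and 1 from NECTIN2 (15). The table lists none for GJA1, GJA4, GJB2 or CDH1. CTNNA1, CDH2, CTNNA2 and GJC1 had enough reads to be tested when summed over the host gene, among 3389 hosts tested, of which 11.0% were called at 18 months (8.17% higher, 2.86% lower), 31.1% at 4 years against 6 months (18.0% higher, 13.1% lower) and 0.0295% at 4 years against 18 months.

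CDH2 circRNAs fell with the gene. They gave 104, 91 and 110 reads at 6 months, 40, 85 and 34 at 18 months and 21, 37 and 15 at 4 years, with log2 fold changes of -1.31 ± 0.38 (edgeR adjusted p = 0.0462) and -1.98 ± 0.40 (edgeR adjusted p = 0.00356). The call at 18 months was lost without the filter on low counts (-1.21, edgeR adjusted p = 0.144) and without any single library other than 18-month replicate 2 (edgeR adjusted p between 0.0691 and 0.176), and with the replicate number as a block (edgeR adjusted p = 0.0685). CTNNA2 circRNAs gave 2, 5 and 0 reads at 6 months, 18, 12 and 5 at 18 months and 17, 23 and 14 at 4 years. Their log2 fold change of 3.04 ± 0.86 at 4 years passed (edgeR adjusted p = 0.0184), though not without 6-month replicate 1 (edgeR adjusted p = 0.0549) or 4-year replicate 2 (edgeR adjusted p = 0.0525). GJC1 circRNAs, whose gene was not called, gave 5, 18 and 19 reads at 6 months, 7, 8 and 13 at 18 months and 2, 0 and 2 at 4 years (-3.13 ± 1.03 at 4 years, edgeR adjusted p = 0.035). That call was lost without 6-month replicate 2 or 3, 18-month replicate 3 or any 4-year replicate (edgeR adjusted p between 0.0527 and 0.13), and with the replicate block (edgeR adjusted p = 0.0692).

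CTNNA1 circRNAs were not lower where their gene was. They gave 50, 125 and 48 reads at 6 months, 133, 146 and 144 at 18 months and 109, 125 and 95 at 4 years, with log2 fold changes of 0.63 ± 0.38 (edgeR adjusted p = 0.308) and 0.73 ± 0.38 (edgeR adjusted p = 0.16). Without 6-month replicate 2, the highest of its age, the rise at 4 years passed (1.305, edgeR adjusted p = 0.0273). Per 1000 counts of the gene this was 5.29, 14.5 and 5.16 reads at 6 months, 30.3, 23.4 and 24.6 at 18 months and 25.3, 27.4 and 25.9 at 4 years, so that every later library lay above every 6-month one. The ratio was 3.52-fold higher at 18 months and 3.56-fold higher at 4 years (exact permutation p = 0.0321, adjusted over the 4 genes 0.0643, which misses the threshold). Among 2788 hosts with at least 90 reads, 14.2% did not overlap and were higher at 18 months and 8.90% at 4 years, and the median host changed by -0.06 and -0.67 on the log2 scale. Lower without overlap were 15.7% and 38.2%. GJC1, with 74 reads, is not among those hosts. Its log2 reads per gene count changed by -3.29 at 4 years against 6 months (exact permutation p = 0.0143, adjusted 0.0571). With 2, 0 and 2 reads at that age, the size depends on the pseudocount, from -4.17 with 0.1 to -2.85 with 1, and on single libraries, from -3.90 to -2.46. It passed without 6-month replicate 1 (-3.90, adjusted exact permutation p = 0.0143). For CDH2 and CTNNA2 the exact permutation p was 0.257 and 0.729. This measure was added after the data had been seen. Its permutation p-values are for any difference among the 3 ages together, not for a single pair of ages.

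**Figure D4:**
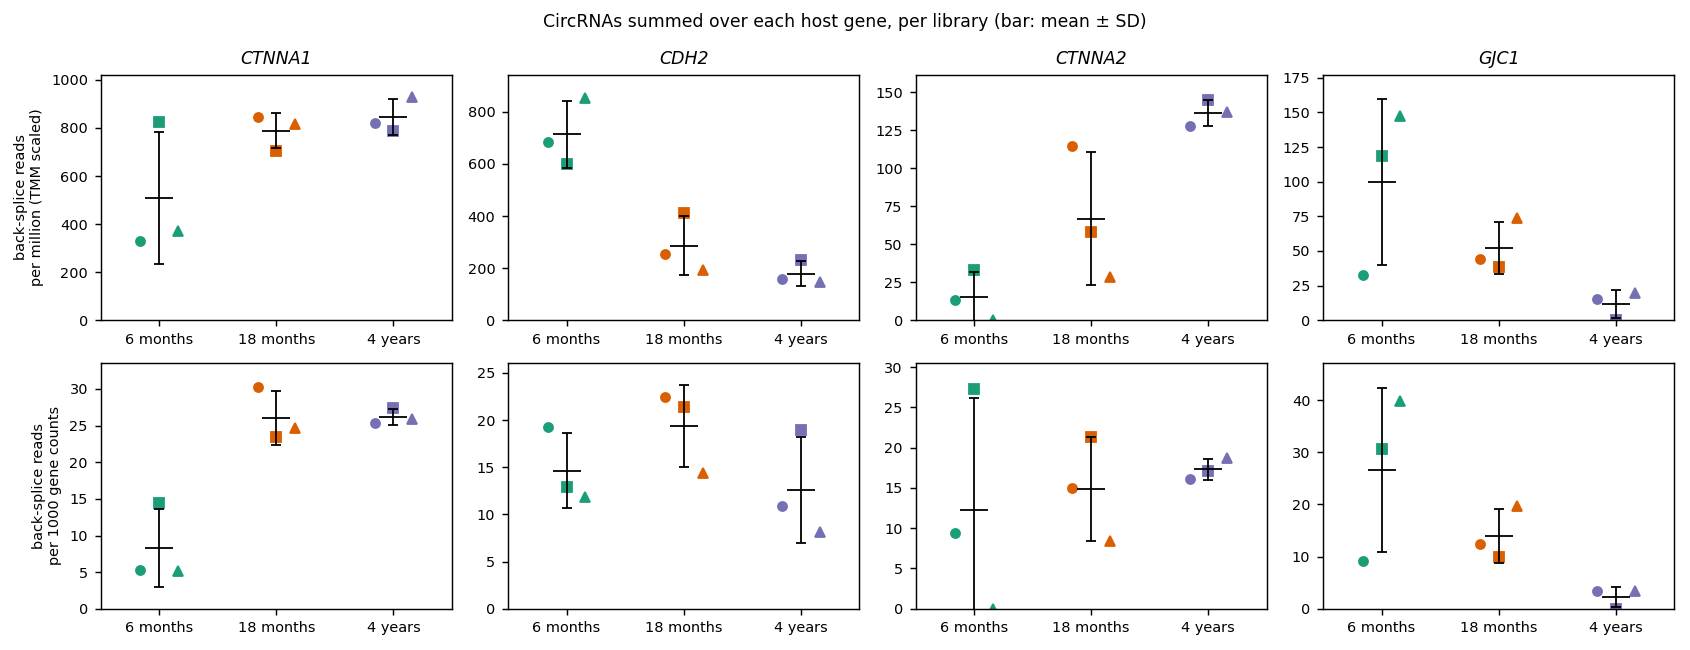
Back-splice reads of CTNNA1, CDH2, CTNNA2 and GJC1, summed per host gene, per 1 M back-splice reads after scaling (upper row) and per 1000 counts of the host gene (lower row), in the 9 libraries by age; bars are the mean ± SD. Per gene count, CTNNA1 rises from at most 14.5 reads at 6 months to at least 23.4 later, and GJC1 lies lowest at 4 years.

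A few circRNAs carried a large part of these reads. For CTNNA1, the circRNA of chr7:50101475-50146696 (plus strand, spliced length 1064 bases, annotated exons) held 522 of the 975 reads, and that of chr7:50206909-50234029 (484 bases) 137. For CDH2, that of chr24:28845825-28869437 (plus strand, 1647 bases) held 230 of 537 reads and, tested among 3877 single circRNAs of which 21.0% were called at 4 years, fell by 2.08 ± 0.57 on the log2 scale (edgeR adjusted p = 0.0303), while that of chr24:28837020-28848754 (621 bases, 99 reads) did not pass (-1.09 ± 0.63, edgeR adjusted p = 0.239). For GJC1, that of chr19:44527703-44529296 (minus strand, 660 bases) held 70 of 74 reads. For CTNNB1, that of chr22:13832339-13844784 (plus strand, 3521 bases) held 52 of 62, and for CTNNA2, that of chr11:55683740-55709293 (minus strand, 554 bases) held 34 of 96. Of the 14 CTNNA2 circRNAs, 6 are classed as antisense, so reads of the opposite strand are part of that sum. Coordinates are as the files give them, and which genome build they follow was not settled.

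The relatives and partners of these proteins were followed in 7 lists, with 87 tested genes in all. Against 6 months, 51 of the 87 were called at 18 months and 60 at 4 years, or 58.6% and 69%, beside 59.9% and 73.9% of all genes. At 4 years against 18 months edgeR called 0 of them, and 21 (24.1%) had an unadjusted p under 0.05, beside 21.3% of all genes. DESeq2 called 6 of the 76 to which it gave an adjusted p (7.89%), beside 5.98% of all genes.

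The other connexins and pannexins mostly fell. Of 20 listed, 18 were in the table and 8 passed the filter on low counts. Of these 8, 5 fell and 1 rose at 18 months, and 6 fell and 1 rose at 4 years. Over all genes tested, 27.1% fell and 32.7% rose at 18 months, and 37.2% and 36.7% at 4 years. The median log2 fold change of the 8 was -1.87 and -2.25, beside 0.02 and -0.06 over all genes. PANX1, a channel that releases ATP, went from 46.5 ± 4.66 to 9.71 ± 5.12 and 5.28 ± 0.39 CPM (-3.14 ± 0.35 at 4 years, edgeR adjusted p = 0.000109). GJB5 went from 16.9 ± 1.82 to 2.80 ± 0.73 and 5.10 ± 0.30 CPM (-2.59 ± 0.26 at 18 months, edgeR adjusted p = 0.000105), and GJC3 from 799 counts over the 6-month libraries to 18 and 8.

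Among the other cadherins, more rose than fell. Of 18 listed, 16 were tested, and 7 rose and 2 fell at 18 months, 8 rose and 3 fell at 4 years (median 0.68 and 1.81), beside 32.7% and 36.7% of all genes that rose and 27.1% and 37.2% that fell. CDH13, a cadherin anchored by a lipid and without a catenin-binding tail, went from 2.89 ± 0.89 CPM at 6 months to 109.4 ± 68.9 and 163.9 ± 21.6, a log2 fold change of 5.82 ± 0.58 at 4 years (edgeR adjusted p = 7.01e-05). CDH20 went from 0.247 ± 0.107 to 9.99 ± 4.88 and 12.0 ± 0.96 CPM (5.57 ± 0.51, edgeR adjusted p = 5.23e-05). CDH11, a cadherin of mesenchymal cells, fell from 419 ± 19.6 CPM to 62.8 ± 30.9 and 41.6 ± 3.85 (-3.33 ± 0.36, edgeR adjusted p = 9.25e-05). The 8 fibroblast and interstitial progenitor markers summed to 2518 to 3288 CPM at 6 months and 200 to 223.7 at 4 years, all 8 fell, none was at 0, and their part in the CDH11 value was not tested. The desmosomal genes gave no call upwards: of 8 tested out of 10, 4 fell at both ages, among them DSG2, a desmosomal cadherin, from 53.6 ± 12.5 to 6.49 ± 3.12 and 2.66 ± 0.36 CPM (-4.33 ± 0.38 at 4 years, edgeR adjusted p = 4.44e-05). DSG3, DSC1 and DSC2 were the others.

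All 13 other catenins and catenin partners were tested, and 5 rose and 1 fell at 18 months, 7 rose and 4 fell at 4 years (median 0.29 and 0.39). For this list and the next, the shares of all genes were 32.7% higher and 27.1% lower at 18 months. At 4 years they were 36.7% and 37.2%. CTNNBIP1, which keeps beta-catenin from its nuclear partners, rose from 3.69 ± 0.65 to 14.2 ± 4.88 and 15.2 ± 0.28 CPM (2.04 ± 0.29 at 4 years, edgeR adjusted p = 0.000294). PKP1, a plakophilin, and CTNND2, a delta-catenin of neurons, rose by 3.88 ± 0.56 and 2.77 ± 0.37 on the log2 scale at 4 years (edgeR adjusted p = 0.000329 and 0.000219). The beta-catenin destruction complex and nuclear partners had 17 tested identifiers for 15 symbols, CSNK1A1 standing on 3, and 9 rose at both ages, beside 1 that fell at 18 months and 3 at 4 years. LEF1, which binds DNA with beta-catenin, went from 21.5 ± 6.78 to 171.1 ± 85.5 and 232 ± 19.3 CPM (3.43 ± 0.43 at 4 years, edgeR adjusted p = 0.000174). APC, the scaffold of the destruction complex, fell from 127.4 ± 10.2 to 49.7 ± 12.0 and 42.3 ± 3.33 CPM (-1.59 ± 0.20, edgeR adjusted p = 0.000159), while its relative APC2 rose from 2.32 ± 0.42 to 6.88 ± 0.77 and 10.5 ± 0.36 CPM (2.18 ± 0.25, edgeR adjusted p = 0.000109).

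Of the other nectins and their partners, 10 of 13 were tested, and 3 rose and 3 fell at 18 months, 2 rose and 3 fell at 4 years (median -0.25 and -0.43). NECTIN3, the nectin that spermatids set against NECTIN2 of the Sertoli cell, went from 49.9 ± 0.74 CPM at 6 months to 147.9 ± 83.4 at 18 months and 266 ± 10.2 at 4 years (2.41 ± 0.39 at 4 years, edgeR adjusted p = 0.000564), while NECTIN2 fell. SSX2IP, a protein that binds the nectin adaptor afadin, rose by 2.71 ± 0.37 at 4 years (edgeR adjusted p = 0.000247), whereas CADM4, an adhesion molecule, and PVR, a nectin-like receptor, fell by 2.85 ± 0.26 and 2.73 ± 0.51 at 18 months (edgeR adjusted p = 8.16e-05 and 0.00193). Among 15 scaffolds and kinases that bind connexins or phosphorylate them, 6 rose and 4 fell at 18 months and 5 rose and 5 fell at 4 years (median -0.11 and -0.39). Beside the nectin and scaffold counts, 32.7% of all genes rose and 27.1% fell at 18 months. At 4 years these shares were 36.7% and 37.2%. MAPK3 went from 40.3 ± 3.30 to 130.4 ± 41.6 and 174 ± 23.1 CPM (2.11 ± 0.25 at 4 years, edgeR adjusted p = 0.000132), and CNST, which takes part in connexin transport, fell by 1.62 ± 0.25 at 4 years (edgeR adjusted p = 0.000421).

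**Figure D5:**
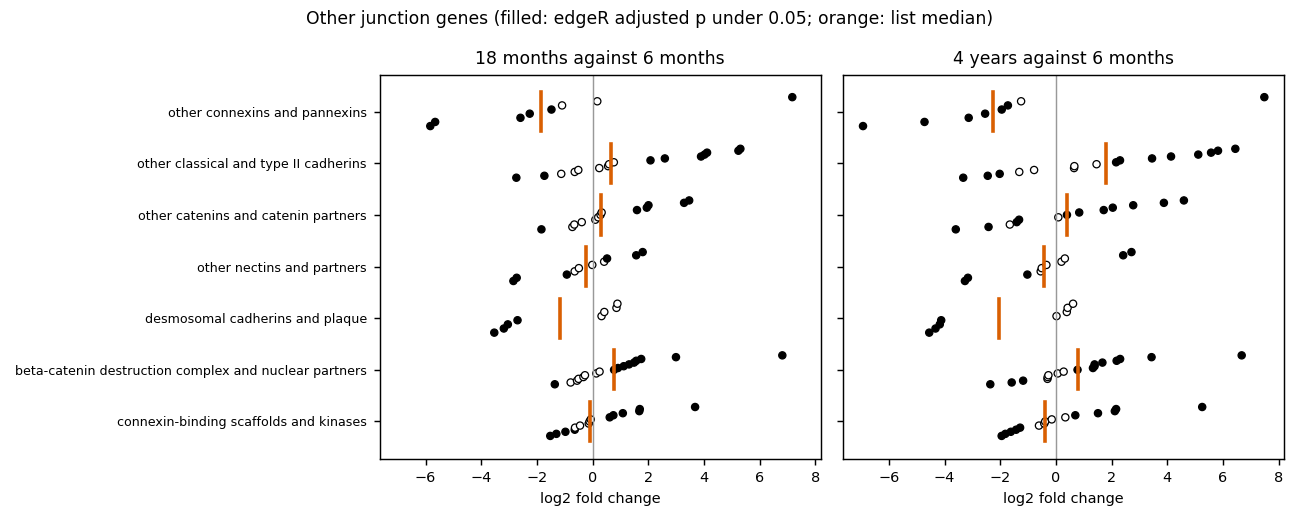
Log2 fold change against 6 months (horizontal axes) of every tested gene of the 7 lists of related junction genes, at 18 months (left) and 4 years (right); filled points have an edgeR adjusted p under 0.05 and orange bars are list medians. Most other connexins lie left of 0 and most cadherins that passed lie right of 0, and no desmosomal gene passed to the right.

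The genes with the most similar course over the 9 libraries were sought for GJA1, CDH2 and CDH1 among 16729 genes, by the root mean square difference of centred log2 CPM. For CDH2 they were CPD (0.113), TPGS1 (0.164) and JTB (0.166), beside a root mean square of 1.05 for the course of CDH2 itself. For GJA1 they were MGST1 (0.151), EGFLAM (0.155) and YWHAB (0.158), beside 0.778. For CDH1, whose own value was 0.576, the nearest were CACNA1A (0.294), LRFN4 (0.307) and TENT5D (0.325). The libraries share their ages and animals across all of these genes, and the distances are descriptions.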

How the data were processed

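Per the labels' protocols, RNA from frozen testis with an RNA integrity number over 7 was depleted of ribosomal RNA with Ribo-Zero Gold, made into NEBNext Ultra libraries and read from both ends on a HiSeq2500. Per the submitters' processing notes, the build was UMD3.1 and the tools included StringTie (1.3.4), HISAT2 (2.1.0) and fastp (0.18.0), with no roles; how reads were counted was not given in the sources used here. In the deposited files, the gene table holds, per the file headers, an estimated count and an FPKM value that the authors deposited for each library; values of 3137 of its 22183 genes are fractional, and all were rounded. For circRNAs the file headers name a deposited count of back-splice reads per library. The authors' deposited tables of differing genes hold log2 ratios of mean FPKM and an adjusted p-value (FDR).

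edgeR 4.0.16 (R 4.3.3) fitted all 9 libraries with age as the only factor (6 residual degrees of freedom), after filterByExpr (16742 genes kept) and TMM scaling, and glmQLFTest p-values were adjusted by the Benjamini-Hochberg method over all genes of a comparison. CircRNAs were fitted likewise, summed over the source gene (3389 hosts kept; 6967 circRNAs have no source gene) and singly (3877 kept). The SE is the size of the log2 fold change divided by the square root of F. Ratios were tested on the log2 scale after adding 0.5 to each count, by exact permutation in Python 3.11.15, two-sided by construction. Alternatives were RLE scaling, library size alone, DESeq2 1.42.0, no filter on low counts, unrounded counts, only the 6 libraries compared, the replicate number as a block, other pseudocounts and leaving out each library. The fits were tested on simulated data. All 10 genes are named in every comparison, and from each list of related genes those with the smallest p, of which the text prints part; 1 of the related genes is not reported here by name. The 10 genes, the lists and the tests were chosen with earlier results of these data known. The small RNA libraries, which make 18 samples with those used, were not analysed here.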

Additional observations from a re-analysis of the deposited data

How the results depend on the processing

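Of the 10 genes, 6 were called at 18 months and 7 at 4 years against 6 months with RLE scaling, DESeq2, no filter, unrounded counts, only the 6 libraries compared and the replicate block, and 4 and 6 with library size alone. Leaving out 1 library gave 6 to 8 in either comparison and 0 to 3 between 4 years and 18 months. Library size alone moved the median log2 fold change of all genes from 0.02 to 0.43 at 18 months and from -0.06 to 0.23 at 4 years, and the share of calls that were higher from 54.7% to 72.6% and from 49.7% to 58.3%. The results for GJB2 and CDH1 rest on few counts, at most 31 in a library. Genes called between 4 years and 18 months were 1 in the fit used here, 942 with DESeq2, 0 with only the 6 libraries compared and 0 to 5607 without 1 library, the highest without 18-month replicate 1 and 2 without 18-month replicate 2. CircRNA hosts called at 18 months were 374, 590 with DESeq2, 578 with no filter, 244 with the replicate block and 149 to 634 without 1 library, and between 4 years and 18 months 1, 46, 95, 0 and 0 to 43.

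The difference of the log2 ratio between 4 years and 6 months ran from 2.57 to 3.29 for CDH1 to CDH2 (2.94 with all libraries), from 3.21 to 3.48 for CTNNA2 to CTNNA1 (3.35) and from -1.69 to -1.25 for GJA1 to GJC1 (-1.44) without 1 library; the losses are named above. Signs turned for GJC1 at 18 months (0.048 with RLE scaling and with DESeq2, 0.36 with library size alone, -0.099 to 0.079 without 1 library) and at 4 years (0.0047 with RLE scaling, 0.0040 with DESeq2, 0.12 with library size alone), and for CDH1 at 18 months (-0.13 to 0.95 without 1 library). Between 4 years and 18 months, leaving out 1 library gave -0.24 to 0.054 for GJC1, -0.52 to 0.022 for GJA4, -0.50 to 0.75 for GJB2 and -0.20 to 0.86 for CDH1. The log2 back-splice reads per gene count at 4 years went from -0.073 to 1.94 for CTNNA2 and from -0.58 to 0.021 for CDH2. The cause was not tested.

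Replicate numbers did not pair the libraries: deviations of same-numbered libraries from their age means correlated between -0.135 and 0.104 over 9 pairs, 1 above 0.1, and 3 of 9 libraries correlated best with their own number. With the replicate block, 9439 genes were called at 18 months and 11939 at 4 years against 6 months and 1 between the later ages, beside 10026, 12372 and 1, and of the calls among the 10 genes and their circRNA sums, those of CDH2 circRNAs at 18 months (edgeR adjusted p = 0.0685) and GJC1 circRNAs at 4 years (edgeR adjusted p = 0.0692) were lost.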
